A study of Homo sapiens with 6 samples.

Results

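The ATF4 stress response genes examined here are 10 genes taken by symbol from the deposited expression table of 51537 genes: the transcription factors ATF4, ATF5, DDIT3 and CEBPB, the enzymes ASNS and CHAC1, the signalling inhibitors DDIT4, SESN2 and TRIB3, and the receptor VLDLR. All 10 were found, each as 1 row, and 9 passed the filter on low values and were tested. ASNS was below the filter in all libraries.

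Cells under amino acid shortage, unfolded protein in the endoplasmic reticulum, haem deficiency or viral RNA phosphorylate the translation initiation factor eIF2 through dedicated kinases. General translation then slows, while the ATF4 messenger, which carries upstream open reading frames, is translated more. ATF4 is a basic leucine zipper (bZIP) factor that pairs with C/EBP proteins on genes for amino acid supply, redox balance and, under lasting stress, cell death. Because much of this control is translational, messenger levels do not measure ATF4 protein, which was not measured here.

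Poly(A) RNA was sequenced from the lung cancer line H3122 (human adenocarcinoma, with an EML4-ALK fusion) in 3 control libraries and in 3 libraries of a crizotinib-resistant derivative. Crizotinib inhibits the ALK and MET kinases. Both groups carry the H3122 background, and the resistant cells had been selected in crizotinib raised in steps from 0.1 µM to 10 µM. The labels describe a single resistant derivative, do not name clones, do not say whether the drug was present at harvest, and do not state how far the replicates were independent. The p-values therefore reflect variation among these 6 libraries alone, part or all of which could be technical. Values are TPM, a level scaled for gene length and library, so levels of different genes can be compared. Log2 changes are resistant minus control on log2(TPM + 1), with their standard error. A gene was called changed at an adjusted p below 0.05 by limma with Benjamini-Hochberg adjustment over 16077 genes, the source of every adjusted p below.

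The libraries held an estimated 29859119 to 36698163 reads. The epithelial keratin KRT8 was at 6037 to 6842 TPM and EPCAM at 245 to 345 TPM in all 6 libraries. Of the lung lineage markers, NKX2-1 and SFTPB stayed below 1 TPM in each library, and NAPSA was at 1.10 to 2.05 TPM. Of 14 fibroblast, immune and endothelial markers, 11 were below 1 TPM in all libraries and DCN, LUM, LYZ and KDR were listed at 0. The summed level of the 14 was 9.83 to 11.1 TPM in control and 7.03 to 8.79 TPM in resistant libraries, and the endothelial cadherin CDH5 alone was at 3.19 to 7.64 TPM. Of the 3 that could be tested, 1 rose and 2 fell, 33.3% and 66.7% beside 24% and 24.7% of all genes. Of 8 tested epithelial markers 2 rose and 2 fell, 25.0% each beside the same shares. Those that rose were CDH1 and KRT19 (log2 0.36 and 0.34), and those that fell were EPCAM and MUC1 (log2 -0.36 and -0.63). The part of these markers in the results below was not tested. In bulk RNA, fewer cells expressing a gene and less RNA per cell cannot be told apart.

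The 10 genes did not move as a block. DDIT3, CHAC1 and CEBPB rose, ATF4, DDIT4 and SESN2 fell, and ATF5, TRIB3 and VLDLR did not pass the test. Over all genes tested, 48.6% were called changed, 24% higher and 24.7% lower, so 3 higher and 3 lower of 9 is near the background share in each direction. The median log2 change was -0.18 over the 9 tested genes and -0.0044 over all genes tested, and the median size of the change regardless of sign was 0.30 and 0.27. The resistant libraries lay wholly above the control libraries for 4 of the 10 genes and wholly below for 4, while 57.9% of all genes tested had groups that did not overlap.

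**Figure D1:**
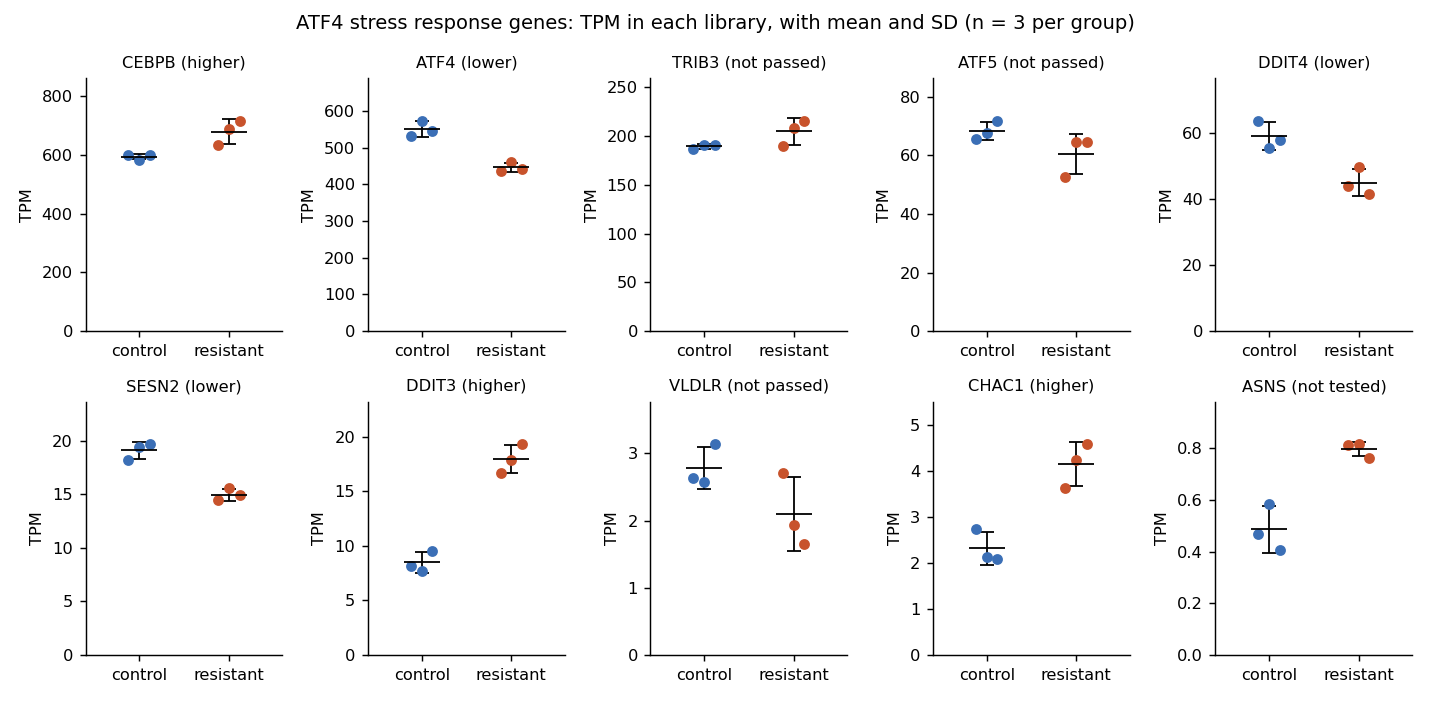
TPM of each gene (y axis, from 0) in the 3 control (blue) and 3 resistant (red) libraries, in order of control level; points are libraries, bars the mean and SD. DDIT3, CHAC1, CEBPB and ASNS lie higher in every resistant library, and ATF4, ATF5, DDIT4 and SESN2 lower.

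The levels spanned a wide range. In control libraries the order from high to low was CEBPB, ATF4, TRIB3, ATF5, DDIT4, SESN2, DDIT3, VLDLR, CHAC1 and ASNS, and VLDLR and CHAC1 were the only neighbours whose libraries overlapped. ATF4, at a mean of 550.0 TPM, exceeded 98.8% of the genes tested, and CHAC1, at 2.32 TPM, exceeded 18.9%. In resistant libraries DDIT3 stood above SESN2 and CHAC1 above VLDLR, with no overlap between any neighbours.

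ATF4 itself, the factor on which the response turns (ENSG00000128272, GRCh38 chr22:39519695-39522685), fell. It was at 531, 574 and 546 TPM in control replicates 1 to 3 and at 437, 460.5 and 443 TPM in resistant replicates 1 to 3. Every resistant library was below every control library. The mean went from 550.0 ± 21.7 to 447 ± 12.2 TPM (SD, n = 3 each; log2 -0.30 ± 0.04, limma adjusted p = 9.98e-04). Processed copies of ATF4 can take reads from it: ATF4P3 was at 0.504 to 2.12 TPM and ATF4P1 and ATF4P4 at no more than 0.103 TPM.

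ATF5, a related bZIP factor with a similar upstream reading frame that is known in the mitochondrial stress response (ENSG00000169136, chr19:49928702-49933935), did not pass. It was at 65.6, 67.5 and 71.8 TPM in control and 52.6, 64.4 and 64.45 TPM in resistant libraries. The groups did not overlap, but resistant replicate 1 lay apart from the other 2 (log2 -0.18 ± 0.08, 95% interval -0.37 to 0.02, limma adjusted p = 0.120). ATF5 shares 21.2% of its exon bases with NUP62 on the opposite strand (76.7 to 89.0 TPM), and whether the authors counted by strand is not given.

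CEBPB, a C/EBP factor that pairs with ATF4 and DDIT3 (ENSG00000172216, chr20:50190734-50192689), was the most abundant of the 10 genes. It was at 600.0, 583 and 598 TPM in control and 632, 686 and 716 TPM in resistant libraries. The groups did not overlap, and the increase was small (log2 0.19 ± 0.05, limma adjusted p = 0.0172). The call was lost without resistant replicate 3 (adjusted p = 0.0640) and under median-ratio scaling of the libraries (adjusted p = 0.0517). The median log2 change of 307 expressed protein-coding genes on chromosome 20 was 0.14, and its part in the result was not tested.

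DDIT3 encodes CHOP, a bZIP factor induced by ATF4 that promotes cell death under lasting stress (ENSG00000175197, chr12:57516588-57521737, minus strand). It was at 8.17, 7.74 and 9.55 TPM in control and 16.7, 17.8 and 19.3 TPM in resistant libraries. All resistant libraries lay far above all control libraries. The mean rose from 8.49 ± 0.949 to 18.0 ± 1.30 TPM, a ratio of 2.12 (log2 1.001 ± 0.09, limma adjusted p = 1.16e-04), the largest change of the 9 tested genes. A change of at least that size on the log2 scale was called for 5.98% of all genes tested. DDIT3 and ATF4 thus moved in opposite directions: for every 100 TPM of ATF4 there were 1.54, 1.35 and 1.75 TPM of DDIT3 in control libraries and 3.82, 3.87 and 4.36 TPM in resistant libraries.

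Neighbouring annotation touches the DDIT3 value. DDIT3 shares 27.2% of its exon bases with the methionyl-tRNA synthetase gene MARS1 on the opposite strand and 4.44% with MBD6, also opposite. MARS1 was at 70.1 to 80.6 TPM and did not pass the test (log2 0.05, limma adjusted p = 0.522), and MBD6 was at 38.4 to 38.8 TPM in control and 32.8 to 34.2 TPM in resistant libraries. Without strand, reads from such a pair cannot be told apart, and the counting setting is not given. The promoter window of DDIT3 is printed because this gene changed most. It runs from 250 bases before to 50 after the start in RefSeq on GRCh38.p14 (chr12:57520465-57520764, minus strand), 5′ to 3′ on the gene's strand, with capitals marking a match to the endoplasmic reticulum stress response element without its last letter:

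DDIT3: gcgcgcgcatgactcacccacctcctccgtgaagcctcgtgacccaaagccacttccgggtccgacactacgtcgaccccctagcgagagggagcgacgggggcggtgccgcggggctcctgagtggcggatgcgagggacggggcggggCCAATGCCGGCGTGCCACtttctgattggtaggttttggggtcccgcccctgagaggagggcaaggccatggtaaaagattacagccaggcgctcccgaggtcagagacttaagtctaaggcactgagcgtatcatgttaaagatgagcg

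The shortened pattern was chosen after the sequence was seen. The match begins at base -100, counting the start as 0. Searched on both strands, the shortened pattern was in 0.316% of 35116 promoter windows and the full element in 0.0769%, and no window of the 10 genes held the full element.

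TRIB3, a pseudokinase that binds ATF4 and DDIT3 and dampens their activity, is a target of both (ENSG00000101255, chr20:362835-397559). It was at 186, 191 and 191 TPM in control and 189, 208 and 216 TPM in resistant libraries. Resistant replicate 1 fell among the control libraries, so the groups overlapped (log2 0.11 ± 0.05, 95% interval -0.02 to 0.23, limma adjusted p = 0.134). Without that library the increase passed the test (log2 0.16, adjusted p = 0.0159). TRIB3 lies on chromosome 20, as CEBPB does.

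CHAC1, an enzyme that breaks down glutathione and is induced by ATF4 (ENSG00000128965, chr15:40952962-40956519), rose. It was at 2.74, 2.13 and 2.09 TPM in control and 3.63, 4.24 and 4.58 TPM in resistant libraries. The groups did not overlap, and the mean ratio was 1.79 (log2 0.64 ± 0.13, limma adjusted p = 0.00478). The value rests on few reads, an estimated 37.1 to 51.2 in control and 70.2 to 91.3 in resistant libraries. The median log2 change of its chromosome was -0.0025 over 281 genes.

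ASNS makes asparagine from aspartate and is among the best known ATF4 targets (ENSG00000070669, chr7:97852118-97872542, minus strand). It was near the floor in every library, at 0.469, 0.583 and 0.406 TPM in control and 0.812, 0.816 and 0.764 TPM in resistant libraries. These correspond to an estimated 19, 22 and 19 reads in control and 34, 33 and 33 reads in resistant libraries. All resistant libraries were above all control libraries, a mean ratio of 1.64, but an exact two-sided permutation test of 3 against 3 libraries cannot go below p = 0.10. Fitted with no filter on low values, the difference did not pass (log2 0.28, limma adjusted p = 0.168).

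Most other genes of amino acid synthesis were far more abundant. Of 15 such genes, ALDH1L2 (0.101 to 0.207 TPM) was the only one below ASNS, CTH and CBS lay between 2.42 and 7.45 TPM, and the others were at 28.0 TPM or more in every library. The median log2 change of 456 genes on chromosome 7 was -0.34, opposite in sign to that of ASNS. Of 8 protein-coding neighbours of ASNS, named after their values were seen, ACN9, LMTK2 and TECPR1 fell (log2 -0.41, -0.59 and -0.53) and BHLHA15 rose (log2 0.83, limma adjusted p = 0.00704). DLX6, TAC1 and OCM2 were listed at 0, and DLX5 did not exceed 0.817 TPM. In GENCODE 29, 44.6% of the exon bases of ASNS also belong to a processed transcript gene on the same strand (ENSG00000284707). That gene has no row in the deposited table, and 7198 identifiers of GENCODE 29 lie above the highest one deposited. Whether the authors' annotation held that gene, and how reads in the shared bases were counted, is not given. If that gene was counted, the level of ASNS below 1 TPM and its place at the end of the order are uncertain. Its place in the plot of amino acid synthesis genes is then uncertain too.

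**Figure D2:**
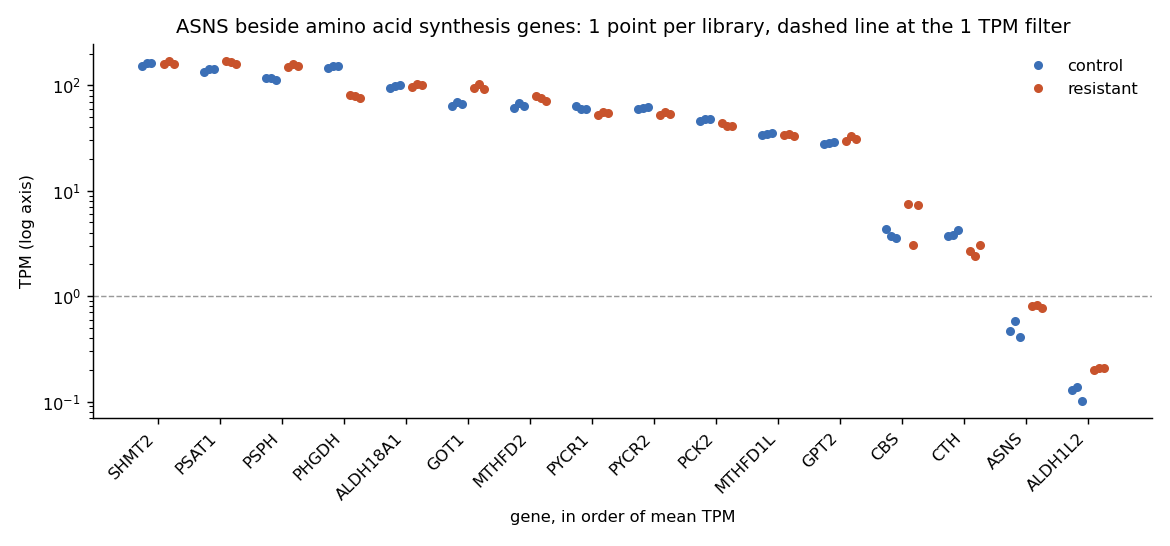
TPM on a log axis of ASNS and 15 amino acid synthesis genes in order of mean level, with 1 point per library (blue control, red resistant) and a dashed line at 1 TPM. ASNS lies below the line in all 6 libraries, between 0.406 and 0.816 TPM.

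The promoter windows of ASNS and CHAC1 are shown because they were the only ones among the 18 windows of the 10 genes that held TGATGNAA, the core of the C/EBP-ATF response element, on either strand. Each runs from 250 bases before to 50 after the RefSeq start on GRCh38.p14, 5′ to 3′ on the gene's strand, with the match in capitals. The ASNS window is chr7:97872359-97872658 (minus strand) and the CHAC1 window chr15:40953221-40953520 (plus strand).

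ASNS: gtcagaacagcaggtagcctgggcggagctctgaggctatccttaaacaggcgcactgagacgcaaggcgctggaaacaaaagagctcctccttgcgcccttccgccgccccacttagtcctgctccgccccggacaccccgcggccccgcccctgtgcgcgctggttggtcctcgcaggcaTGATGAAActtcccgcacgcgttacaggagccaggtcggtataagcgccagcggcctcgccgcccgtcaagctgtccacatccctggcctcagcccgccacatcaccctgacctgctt

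CHAC1: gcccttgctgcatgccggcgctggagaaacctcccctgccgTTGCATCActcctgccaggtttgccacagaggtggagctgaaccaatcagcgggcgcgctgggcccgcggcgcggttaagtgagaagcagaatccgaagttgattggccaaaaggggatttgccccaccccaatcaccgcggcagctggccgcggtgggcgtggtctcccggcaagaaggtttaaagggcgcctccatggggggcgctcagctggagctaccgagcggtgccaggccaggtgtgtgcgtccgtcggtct

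The ASNS match begins at base -68 and reads along the gene's strand, and the CHAC1 match begins at base -209 and lies on the opposite strand. The pattern was in 3.62% of all 35116 windows. The full cAMP response element TGACGTCA, whose reverse complement is itself, was in 1.85% of windows and in none of the 10 genes. A match is a description of letters, and the windows leave out elements farther away or within the genes.

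DDIT4 encodes REDD1, an inhibitor of mTORC1 induced by stress and low oxygen (ENSG00000168209, chr10:72273920-72276036), and it fell. It was at 63.9, 55.5 and 57.9 TPM in control and 44.0, 49.7 and 41.5 TPM in resistant libraries. The groups did not overlap (log2 -0.38 ± 0.08, limma adjusted p = 0.00547). DDIT4-AS1, which covers 41.2% of its exon bases on the opposite strand, was listed at 0 in all libraries.

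SESN2, a leucine sensor that restrains mTORC1 (ENSG00000130766, chr1:28259527-28282491), fell by a similar amount. It was at 18.2, 19.5 and 19.7 TPM in control and 14.4, 15.6 and 14.9 TPM in resistant libraries. The groups did not overlap (log2 -0.33 ± 0.06, limma adjusted p = 0.00278). The chromosome medians of DDIT4 and SESN2 were -0.09 and -0.07. These cover whole chromosomes, and the part of the stretch around each gene was not tested.

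VLDLR, a lipoprotein and reelin receptor that the PERK kinase and ATF4 can induce (ENSG00000147852, chr9:2621834-2660053), did not pass. It was at 2.63, 2.57 and 3.14 TPM in control and 2.71, 1.93 and 1.64 TPM in resistant libraries. Resistant replicate 1 lay among the controls (log2 -0.30 ± 0.16, 95% interval -0.66 to 0.07, limma adjusted p = 0.153). Without it, the difference passed the test (log2 -0.44, adjusted p = 0.0443).

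**Figure D3:**
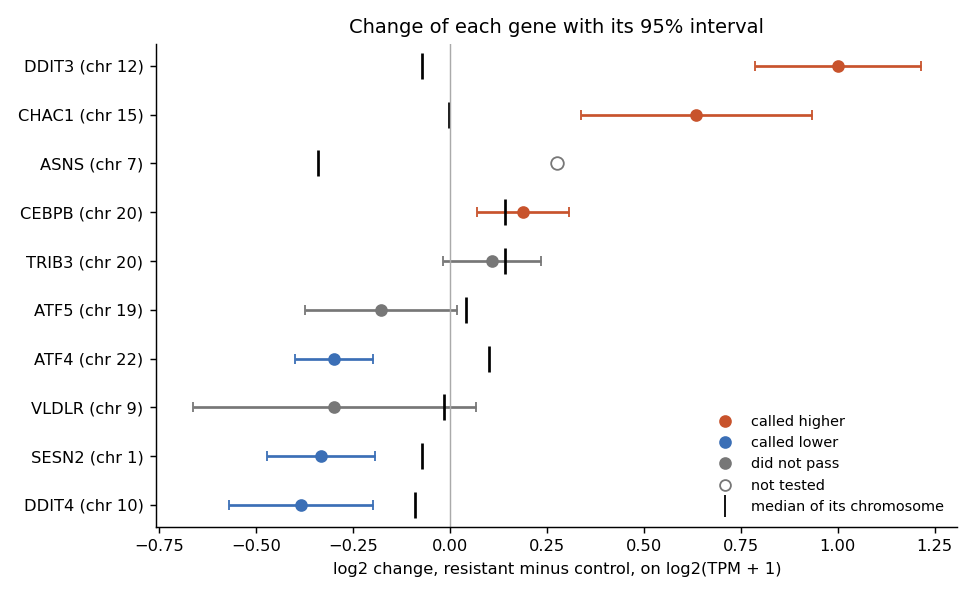
Log2 change on log2(TPM + 1) (x axis) of each gene with its 95% interval, in order of size; black ticks are the median of expressed protein-coding genes on the same chromosome. The intervals of DDIT3, CHAC1 and CEBPB lie above 0 and those of ATF4, SESN2 and DDIT4 below; ASNS (open) was not tested.

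Upstream of ATF4, the eIF2 kinases did not share a direction. EIF2AK1, the haem-regulated kinase HRI, fell from 164 ± 2.91 to 117 ± 2.60 TPM (log2 -0.48 ± 0.04, limma adjusted p = 6.63e-05), and lies on chromosome 7. EIF2AK4, the amino acid sensor GCN2, rose from 10.4 ± 0.622 to 12.5 ± 0.737 TPM (log2 0.24 ± 0.07, adjusted p = 0.0283). EIF2AK3 (PERK, log2 -0.22, adjusted p = 0.117) and EIF2AK2 (PKR, log2 0.19, adjusted p = 0.0560) did not pass. These 4 kinases are named for their role, after their values were seen. Of 20 tested genes of eIF2, its kinases and their regulators, 5 rose, 6 fell and 9 did not pass (median log2 -0.09). The shares that rose and fell were 25.0% and 30.0%, beside 24% and 24.7% of all genes.

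PPP1R15A, the phosphatase subunit GADD34 that removes the phosphate from eIF2 and is itself induced by the response, rose from 41.7 ± 1.74 to 66.0 ± 3.32 TPM (log2 0.65 ± 0.05, limma adjusted p = 7.47e-05). The eIF2 subunit EIF2S1 rose from 48.6 ± 3.04 to 77.5 ± 2.78 TPM, and EIF2S2, which also passed, rose from 154 ± 9.22 to 229 ± 14.7 TPM. The remaining and most abundant subunit EIF2S3, named after its values were seen, fell from 371 ± 16.0 to 304 ± 13.7 TPM (log2 -0.29, adjusted p = 0.00249). OMA1, a mitochondrial protease that relays stress of that organelle to HRI, fell from 12.4 ± 0.923 to 7.03 ± 0.535 TPM (log2 -0.74 ± 0.09, adjusted p = 3.42e-04). OMA1 lies at chr1:58415384-58546802, and the part of the stretch around it was not tested.

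Among 31 tested bZIP partners and relatives, 8 rose and 8 fell, 25.8% each beside 24% and 24.7% of all genes (median log2 -0.0063). BACH1, a haem-sensing repressor, rose from 10.4 ± 1.71 to 19.8 ± 3.88 TPM and NFE2L1, a regulator of proteasome genes, from 88.2 ± 0.798 to 131 ± 7.09 TPM. BACH1 lies on chromosome 21, and the part of that chromosome in its rise was not tested. CREB3L2 fell from 33.3 ± 0.190 to 23.3 ± 1.26 TPM and the immediate early factor FOS from 29.7 ± 1.07 to 20.9 ± 0.635 TPM. ATF3, a stress factor induced by ATF4 and named after its values were seen, was low but rose from 0.858 ± 0.173 to 3.31 ± 0.701 TPM (log2 1.21 ± 0.16, limma adjusted p = 7.22e-04). CEBPG, a dimer partner of ATF4 also named afterwards, did not pass (log2 -0.05, 95% interval -0.22 to 0.11, adjusted p = 0.580).

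Of 14 tested amino acid synthesis genes, 4 rose and 5 fell, 28.6% and 35.7% beside 24% and 24.7% of all genes (median log2 0.04). PHGDH, which opens the serine pathway, fell from 151 ± 3.11 to 78.1 ± 2.64 TPM (log2 -0.94 ± 0.04, limma adjusted p = 6.51e-06), while both following enzymes rose, PSAT1 from 140 ± 4.80 to 166 ± 5.29 TPM and PSPH from 115 ± 1.98 to 153 ± 4.28 TPM. The transaminase GOT1 rose from 66.3 ± 3.07 to 97.4 ± 5.64 TPM. The count of genes that fell was 3 with the replicate number as a block and without resistant replicate 2 or 3, and 1 without control replicate 3.

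Of 11 tested amino acid transporters, 2 rose and 3 fell, 18.2% and 27.3% beside 24% and 24.7% of all genes (median log2 0.02). SLC7A5, the large neutral amino acid transporter LAT1, rose from 157 ± 7.18 to 258 ± 23.8 TPM (log2 0.71 ± 0.07, limma adjusted p = 1.96e-04), and the other gene that rose was its heavy chain partner SLC3A2 (log2 0.42), named after its values were seen. The arginine and lysine transporter SLC7A1, which lies on chromosome 13, fell from 62.6 ± 2.05 to 40.9 ± 0.691 TPM. The part of its chromosome in this fall was not tested. The neutral amino acid transporters SLC38A1 and SLC38A2, which carry glutamine, fell as well, the former from 67.7 ± 6.18 to 43.4 ± 4.16 TPM and the latter from 110.2 ± 8.38 to 73.6 ± 6.52 TPM. SLC1A5, another glutamine carrier and the most abundant gene of the list, named after its values were seen, was at 301 ± 10.8 and 295 ± 13.8 TPM and did not pass (log2 -0.03, adjusted p = 0.682). Of 13 tested cytosolic tRNA synthetase and tRNA export genes, 4 rose and 5 fell (median log2 -0.12). The shares were 30.8% and 38.5%, beside 24% and 24.7% of all genes. AARS1 rose from 159 ± 8.45 to 253 ± 7.49 TPM and WARS1 from 28.3 ± 1.07 to 40.4 ± 0.890 TPM, while SARS1 fell from 124 ± 7.60 to 94.7 ± 3.83 TPM and TARS1 from 135 ± 11.9 to 105 ± 4.87 TPM. The 5 that fell became 2 with the replicate number as a block, with no filter on low values, and without control replicate 2, control replicate 3 or resistant replicate 3, and 3 without resistant replicate 2.

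Of 17 other tested targets of ATF4 and CHOP, 8 rose and 2 fell, 47.1% and 11.8% beside 24% and 24.7% of all genes, and the median log2 change was 0.17. STC2, a secreted stress glycoprotein, rose from 28.6 ± 0.951 to 45.9 ± 2.13 TPM (log2 0.66 ± 0.05, limma adjusted p = 6.2e-05). ERO1A, an oxidase of the endoplasmic reticulum induced by CHOP, rose from 36.2 ± 1.15 to 52.6 ± 4.82 TPM, and the autophagy receptor SQSTM1 from 266 ± 3.34 to 371 ± 26.1 TPM. BCL2L11, which encodes the cell death protein BIM, fell from 22.7 ± 1.25 to 14.4 ± 0.597 TPM (log2 -0.62 ± 0.06, adjusted p = 1.86e-04). The count that fell was 1 without control replicate 2 or 3 and with the replicate block. Some genes stand in more than 1 list, and no list was tested as a set.

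In the other branches of the unfolded protein response, 8 of 22 tested IRE1 and ATF6 branch genes rose and 3 fell (median log2 0.12). The shares were 36.4% and 13.6%, beside 24% and 24.7% of all genes. MANF, a secreted stress protein, rose from 39.2 ± 0.392 to 72.1 ± 5.88 TPM (log2 0.86 ± 0.06, limma adjusted p = 4.40e-05). The chaperone HSPA5 (BiP) rose from 288 ± 11.2 to 390.2 ± 16.4 TPM. SDF2L1 rose from 126 ± 3.71 to 191 ± 14.2 TPM and CRELD2 from 21.96 ± 1.36 to 36.5 ± 2.81 TPM, both genes of the endoplasmic reticulum lumen. The 3 that fell were HERPUD1, DERL1 and SERP1 (log2 -0.39, -0.33 and -0.17). Among bZIP factors of these branches, XBP1 and ATF6B also fell (log2 -0.23 and -0.24), and ATF6 did not pass (log2 -0.04). These 6 genes were named after their values were seen.

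**Figure D4:**
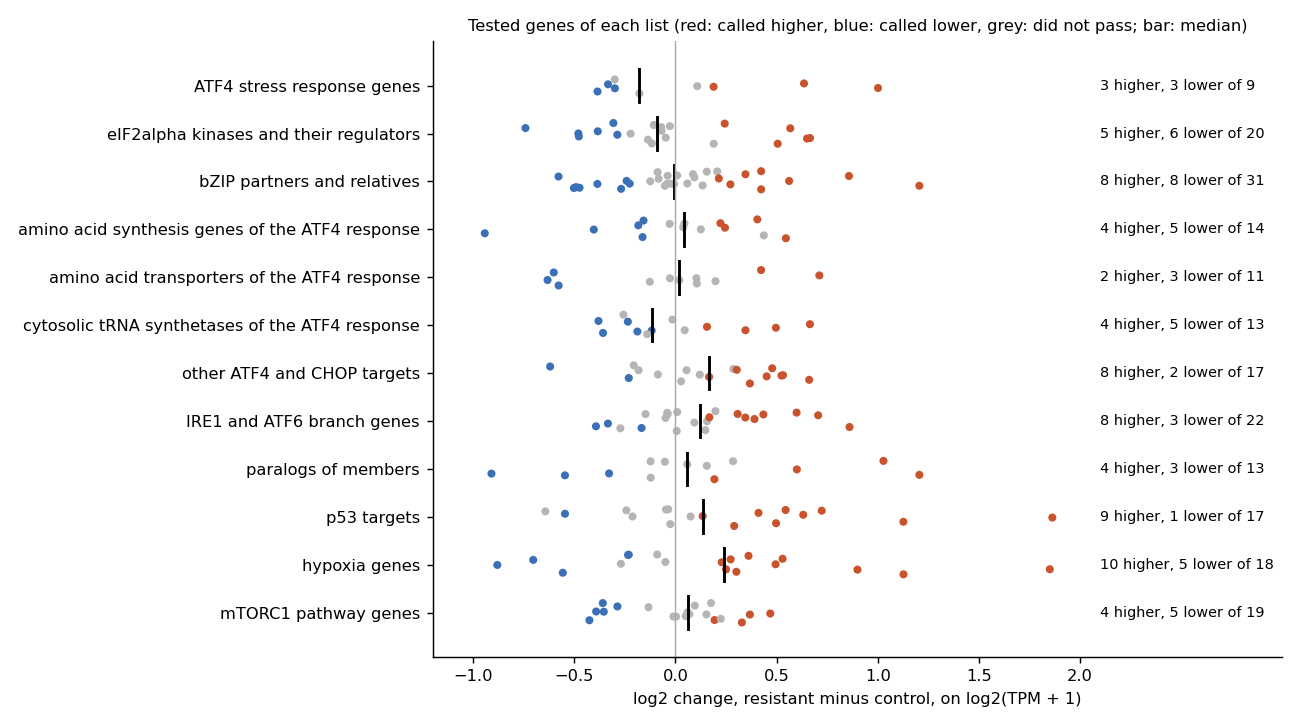
Log2 change on log2(TPM + 1) (x axis) of every tested gene in each pathway list (red called higher, blue called lower, grey did not pass; black bar, median); the lists of cell type markers are not plotted. The genes of every list plotted spread to both sides of 0, and the medians plotted lie between -0.18 and 0.24.

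Some of the 10 genes also answer to p53 and to low oxygen, so those lists were read beside them. Of 17 tested p53 targets, 9 rose and 1 fell, 52.9% and 5.88% beside 24% and 24.7% of all genes (median log2 0.13). The cell cycle inhibitor CDKN1A rose from 24.0 ± 1.32 to 90.1 ± 5.35 TPM (log2 1.86 ± 0.06, limma adjusted p = 1.72e-06), TP53I3 from 14.3 ± 1.86 to 32.3 ± 2.89 TPM and the mitochondrial reductase FDXR from 17.8 ± 0.872 to 30.0 ± 0.847 TPM. SESN1, a paralog of SESN2, was the target that fell, from 12.2 ± 1.10 to 8.02 ± 0.364 TPM. The count that fell was 2 without control replicate 1, resistant replicate 1 or resistant replicate 2. It was 3 when only genes over 500 exon bases were tested. The 10 genes are not counted in this list, and SESN2 and DDIT4 among them fell (log2 -0.33 and -0.38). Of 18 tested hypoxia genes, 10 rose and 5 fell, 55.6% and 27.8% beside the same shares of all genes (median log2 0.24). CA9, a carbonic anhydrase, rose from 6.72 ± 0.340 to 26.9 ± 1.80 TPM and HIF1A from 64.2 ± 8.44 to 121 ± 16.1 TPM, while ADM, a vasodilator peptide gene, fell from 45.1 ± 2.13 to 24.2 ± 3.47 TPM and EGLN1, an oxygen sensor, from 31.1 ± 1.28 to 18.7 ± 0.474 TPM.

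Paralogs did not follow their relatives in a single way. Among 13 tested, 4 rose and 3 fell, 30.8% and 23.1% beside 24% and 24.7% of all genes (median log2 0.06). The 4 that rose became 2 without resistant replicate 2 or with a filter at 5 TPM. LRP8, which like VLDLR is a reelin receptor, fell from 91.9 ± 1.38 to 48.5 ± 2.56 TPM (log2 -0.91 ± 0.05, limma adjusted p = 1.23e-05). LRP8 lies at chr1:53242364-53328070, on the same chromosome as OMA1, and the part of that stretch was not tested. SESN1 fell as SESN2 did. ASNSD1 fell from 19.2 ± 2.41 to 15.0 ± 1.40 TPM (log2 -0.33, adjusted p = 0.0342), a call lost without control replicate 2 or 3 or resistant replicate 2 or 3, with the replicate block and with no filter on low values (adjusted p up to 0.109). DDIT4L, a paralog of DDIT4 named after its values were seen, rose from 0.601 ± 0.129 to 2.28 ± 0.472 TPM, the opposite direction to DDIT4.

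Of 19 tested mTORC1 pathway genes, on which SESN2 and DDIT4 act, 4 rose, 5 fell and 10 did not pass (median log2 0.06). The shares that rose and fell were 21.05% and 26.3%, beside 24% and 24.7% of all genes. EIF4EBP1, a translation repressor that ATF4 also induces, rose from 170 ± 3.91 to 220 ± 6.04 TPM. MIOS fell from 16.8 ± 1.996 to 12.5 ± 0.834 TPM and the kinase RPS6KB1 from 8.47 ± 1.02 to 6.09 ± 1.14 TPM (limma adjusted p = 0.0316). The RPS6KB1 call was lost in the same 6 settings as that of ASNSD1.

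The genes whose pattern over the 6 libraries was most like that of ATF4 were CTDSP1, PDE4A, SPPL2B, CDV3 and GABBR2, with Pearson's r of 0.998 to 0.999 on log2(TPM + 1). The 2 groups set most of such an r, and 2568 of 10352 genes compared had r above 0.9. CTDSP1, a phosphatase, was at 70.5 ± 2.87 and 54.0 ± 1.95 TPM, and CDV3 at 164 ± 8.76 and 131 ± 3.43 TPM.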

How the data were processed

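The authors deposited a single table of TPM for 51537 genes with a column per library; each column summed to 1000000. The submitters' processing notes name HISAT2. The sources used here do not give its version, or the counting tool, strand setting, build, annotation and filters. All identifiers occur in GENCODE 29, whose GRCh38 coordinates (1-based) are printed, and the 10 genes and 13 further lists were matched by symbol or older symbol (243 of 243 entries found).

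A gene was tested if 3 or more libraries reached 1 TPM (16077 genes). A model of log2(TPM + 1) on group was fitted to all 6 libraries with limma 3.58.1 in R 4.3.3, with trend and robust empirical Bayes (statmod 1.5.0), two-sided. The pseudocount understates changes of low genes. The fit was tested on simulated data. Changes of log2 1 were recovered in 82.3% of genes and changes of log2 0.5 in 55.1%, so smaller changes were often missed. Of the calls, 18.4% were unchanged genes, mostly of 500 exon bases or fewer, which is more than the 0.05 threshold allows. Adjusted p-values near 0.05 are therefore less certain than they read. Every gene of the lists is longer than that, and a fit to genes over 500 exon bases was added after this was seen. In the simulation, 7.45% of the calls among genes over 500 exon bases were still unchanged genes, more than the 0.05 threshold allows. Fewer genes were changed in the simulation than were called here, so these shares may differ in the data. Replicates in a group differed by more than counting noise (chi-square per gene 3.87 to 11.0).

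Depth was estimated by dividing TPM times GENCODE 29 exon length by its smallest step; 67.2% to 67.9% of values above 0 were then whole within 0.01 read. Promoter sequences are from RefSeq (GRCh38.p14); all 10 genes matched.

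The genes and lists were chosen with earlier results of these data known. Named genes are the 10, up to 4 called genes per list by size of change, if the higher group averaged 5 TPM or more (with the most abundant gene where under 2 were called), and the 5 most like ATF4; all others were named after their values were seen. Some genes that this rule names are not reported here. Alternatives were a pseudocount of 0.1, no filter, a filter at 5 TPM, median-ratio scaling, a replicate block and leaving out each library.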

Additional observations from a re-analysis of the deposited data

How the results depend on the processing

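Each of the 9 tested genes kept its direction in every alternative in which it was tested. DDIT3, CHAC1, ATF4, DDIT4 and SESN2 also kept their side of the threshold, and ATF5 stayed short of it. Among the 10 genes, 2 to 4 were called higher and 3 to 4 lower when a library was left out. Over all genes tested, 3001 to 3624 were then called higher and 3001 to 3923 lower, against 3852 and 3963. With the replicate number as a block these were 3433 and 3423, with 3 of the 10 genes higher and 3 lower; same-numbered libraries did not deviate together (correlations -0.058, -0.0017 and -0.016), so the numbers were not taken to pair them.

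Counts in small lists moved most, and the cause was not tested. With the replicate block, amino acid synthesis genes called lower were 3, tRNA synthetases called lower 2, other ATF4 and CHOP targets called lower 1 and p53 targets called lower 2. With no filter on low values tRNA synthetases called lower were 2, and with median-ratio scaling p53 targets called lower were 2. Tested on genes over 500 exon bases alone, a choice made after seeing the data, p53 targets called lower were 3, and of the 10 genes 3 were lower and 3 higher. With a filter at 5 TPM, paralogs called higher were 2, and markers of other cell types called higher 0 and lower 1, as fewer genes were tested. Leaving out a library gave 1 to 4 amino acid synthesis genes called lower, 2 to 5 tRNA synthetases called lower, 1 to 3 other ATF4 and CHOP targets called lower, 2 to 4 paralogs called higher, 1 to 2 p53 targets called lower and 1 to 2 other markers called lower. The marker count was 1 without any one of the control replicates. TPM keeps no depth, so the reads behind CHAC1 and ASNS are estimates.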
